A study of Arabidopsis thaliana with 6 samples.

Results

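The cytokinin oxidase/dehydrogenases (CKX) are the enzymes that break down cytokinin, and in Arabidopsis they form a small family, CKX1 to CKX7. The family was taken as a whole by its locus codes, at a time when earlier results of these data were known. Of the 7 genes, 6 were among the 20777 loci of the expression table, and CKX7 (AT5G21482), whose enzyme stays in the cytosol, was not analysed here. Older names of CKX5, CKX6 and CKX7 overlap, so each gene is identified by its code: CKX1 (AT2G41510), CKX2 (AT2G19500), CKX3 (AT5G56970), CKX4 (AT4G29740), CKX5 (AT1G75450) and CKX6 (AT3G63440).

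Transcripts were measured on ATH1 oligonucleotide arrays in 35S::GRF5 seedlings, 3 arrays, and in wild-type seedlings, 3 arrays, all of the Col-0 ecotype. 35S::GRF5 plants carry the transcription factor gene GRF5 behind the 35S promoter, which is active in most plant cells, and the labels describe a single overexpressing line. Both groups were raised on MS medium at 22 °C in days of 16 h light and nights of 8 h, and the vegetative part was taken at growth stage 1.03. The labels call the 3 samples of a group biological repeats, without saying which plants were pooled. The extract held RNA of every cell type in that part, so fewer cells that express a gene and less RNA per cell cannot be told apart.

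Cytokinins are adenine derivatives that promote cell division in shoots. CKX enzymes use bound flavin to cleave the side chain of isoprenoid cytokinins, which ends their activity, and plants with too much CKX form small shoots and large root systems. The enzymes differ in place and site of action: CKX2 is secreted, CKX3 has been found in the vacuole, CKX1 is an enzyme of the secretory pathway, and reporter lines place the CKX genes in partly separate tissues such as young leaves, vasculature, stipules and trichomes. GRF5 promotes cell proliferation in leaf primordia, and the series title places it among several routes to a larger leaf. The comparison asks which transcripts differ between the line and wild type, here for the genes that remove cytokinin.

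Values are log2 expression values made with RMA, so a step of 1 is a factor of 2 in signal. GRF5 read 11.3, 11.4 and 12.1 in 35S::GRF5 replicates 1 to 3, against 4.73, 4.75 and 4.26 in wild-type replicates 1 to 3, as the labels require. Array medians were 6.41 to 6.43 in 35S::GRF5 and 6.38 to 6.39 in wild type, and over all loci the median difference came to 0.02. Of 7 listed leaf markers 2 were measured, CA1 and RCA, a carbonic anhydrase and Rubisco activase, and they read 13.5 to 14.2 over all arrays. Of 5 flower identity markers, 4 lay at or below the 25th percentile of all loci. Of 8 root markers, 3 lay at or below the 25th percentile and 5 above it. PYK10, a beta-glucosidase abundant in seedling roots and hypocotyls, was the 1 root marker above the median of all loci. The PYK10 difference was 0.35 (adjusted p = 0.209, limma), and its part in any result below was not tested.

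No CKX gene passed the threshold. With limma fitted over all 20777 loci and Benjamini-Hochberg adjustment, 0 of the 6 measured genes had an adjusted p under 0.05, where 0.77% of all loci did. At an unadjusted p under 0.05 there was 1 of 6, CKX5, which was higher in 35S::GRF5; over all loci 15.5% had such a p, 9.49% higher and 5.97% lower. The 2 genes with a positive difference were CKX5 and CKX4, and the 4 with a negative one were CKX6, CKX1, CKX3 and CKX2. Over all loci 56.2% of differences were positive. The CKX2 difference was -0.0077, and its sign turned in 4 of 12 alternative fits, so the split is not read as a result about the family. Differences ran from -0.22 to 0.28 log2 units, with a median of -0.08, beside a median of 0.02 over all loci. The arrays of the groups did not overlap for 2 of the 6 genes, CKX5 in the higher and CKX3 in the lower direction, and for 21.7% of all loci, 13.2% higher and 8.45% lower. A count of 2 among 6 genes lies too near that share to be read as a result about the family.

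**Figure D1:**
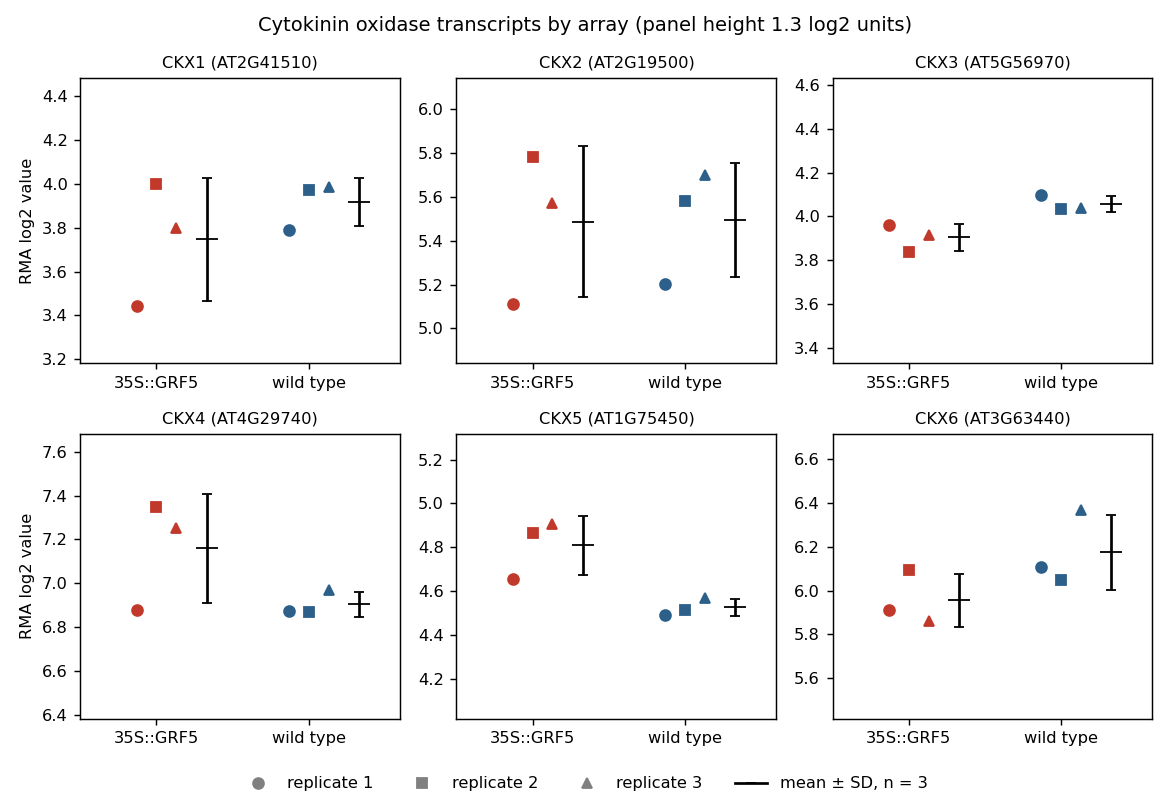
RMA log2 values of the 6 measured CKX genes in each array, 35S::GRF5 (red) left of wild type (blue) in each panel, with the marker shape giving the replicate number and the black bar the mean ± SD (n = 3). All panels span the same height; the groups separate in CKX5, at 4.66 to 4.91 in 35S::GRF5 and 4.49 to 4.57 in wild type, and in CKX3, and they overlap in the other 4 genes.

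CKX5, which reporter lines place in the youngest leaves and in meristems, had the largest difference of the family over all 6 arrays. It read 4.66, 4.86 and 4.91 in 35S::GRF5 replicates 1 to 3, against 4.49, 4.51 and 4.57 in wild-type replicates 1 to 3. Each 35S::GRF5 array lay above each wild-type array, and replicate 1 of the line came closest to wild type. The means were 4.81 ± 0.13 in 35S::GRF5 and 4.53 ± 0.04 in wild type (SD, n = 3 each). The difference of 0.28 (95% interval 0.07 to 0.50) is a factor of 1.22, between 1.05 and 1.41, with an unadjusted p of 0.0144 and an adjusted p of 0.2 in limma. Of all loci, 11.5% had a larger difference in either direction. CKX5 kept a positive difference whichever array was left out, between 0.23 and 0.36, with adjusted p of 0.107 to 0.451. Its rank did not hold in every fit. CKX4 was ahead at 0.40 without 35S::GRF5 replicate 1, and CKX1 at -0.30 and CKX6 at -0.29 without 35S::GRF5 replicate 2. With arrays centred on their medians CKX6 was ahead at -0.26, where CKX5 differed by 0.25. Without wild-type replicate 2 CKX6 was narrowly ahead, at -0.283 against 0.279 for CKX5.

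CKX4, long known as a transcript that cytokinin treatment raises and expressed in trichomes, was second. It read 6.88, 7.35 and 7.25 in 35S::GRF5, against 6.87, 6.87 and 6.97 in wild type. Replicates 2 and 3 of the line were above every wild-type array, while replicate 1 fell among the wild-type values, so the groups overlapped. The means were 7.16 ± 0.25 in 35S::GRF5 and 6.90 ± 0.06 in wild type (SD, n = 3 each). The difference was 0.26 (-0.02 to 0.53), a factor of 1.19, with an unadjusted p of 0.0671 and an adjusted p of 0.362 in limma. Without 35S::GRF5 replicate 1 the difference was 0.40 (adjusted p = 0.094), and without 35S::GRF5 replicate 2 it was 0.16 (adjusted p = 0.602). CKX4 was the 1 member of the family with a mean above the median of all loci.

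CKX6, which reporter lines place in the vasculature and guard cells, had the most negative difference over all 6 arrays. It read 5.91, 6.09 and 5.86 in 35S::GRF5, against 6.11, 6.05 and 6.37 in wild type. The groups overlapped, since 35S::GRF5 replicate 2 was above wild-type replicate 2, and wild-type replicate 3 stood above the rest. The means were 5.96 ± 0.12 in 35S::GRF5 and 6.18 ± 0.17 in wild type (SD, n = 3 each), a difference of -0.22 (-0.47 to 0.03) with an adjusted p of 0.384 in limma. Wild-type replicate 3 was also the array in which 9 genes induced within minutes of touch or stress had a mean of 7.33, where the other arrays had means of 5.89 to 6.004 in 35S::GRF5 and of 5.66 and 5.999 in wild type. Without that array the CKX6 difference was -0.12, smaller in size than those of CKX3 (-0.16) and CKX1 (-0.13). Leaving out the highest wild-type value moves a negative difference towards 0 by construction. A link between the touch genes and CKX6 was not tested. Wild-type replicate 3 also had the highest wild-type value for 5 of the 6 CKX genes, CKX3 being the exception. The margin was small in CKX1 (3.99 against 3.97) and CKX5 (4.57 against 4.51). The share of all loci highest in that array was not counted, so this is not read as a result about the family.

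CKX3, the enzyme reported from the vacuole and known together with CKX5 for limiting the activity of reproductive meristems, had a small negative difference. It read 3.96, 3.84 and 3.92 in 35S::GRF5, against 4.10, 4.03 and 4.04 in wild type. All 3 arrays of the line were below all 3 of wild type. The means were 3.91 ± 0.06 in 35S::GRF5 and 4.06 ± 0.04 in wild type (SD, n = 3 each). Both means lay below the 25th percentile of all loci, 4.38 log2 units. The difference was -0.15 (-0.34 to 0.04), with an unadjusted p of 0.105 and an adjusted p of 0.431 in limma. Its spread between replicates was small, at a pooled SD of 0.05 where the median locus had 0.13, and 95.1% of loci had a larger one. The moderated test draws so small a spread towards that of other genes. CKX3 kept its negative difference whichever array was left out, between -0.18 and -0.12.

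CKX1 and CKX2 varied more between replicates than between groups. CKX1 read 3.44, 3.998 and 3.80 in 35S::GRF5, against 3.79, 3.97 and 3.99 in wild type, and the difference was -0.17 (-0.48 to 0.14, adjusted p = 0.608 in limma). That size was not held over the arrays of the line, at -0.02 when replicate 1 was left out and -0.30 when replicate 2 was (adjusted p = 0.956 and 0.357). CKX2, the secreted enzyme, read 5.11, 5.78 and 5.57 in 35S::GRF5, against 5.20, 5.58 and 5.70 in wild type. The groups covered nearly the same range, and the difference was -0.0077 (-0.41 to 0.39, adjusted p = 0.988 in limma). The CKX2 sign depended on the array left out, with values from -0.16 to 0.18. Both genes had their lowest value of each group in replicate 1, although nothing in the labels links the replicates of that number. CKX2 had a pooled SD of 0.31 and CKX1 of 0.21, beside 0.13 for the median locus, and 3.18% and 12% of loci had a larger one.

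**Figure D2:**
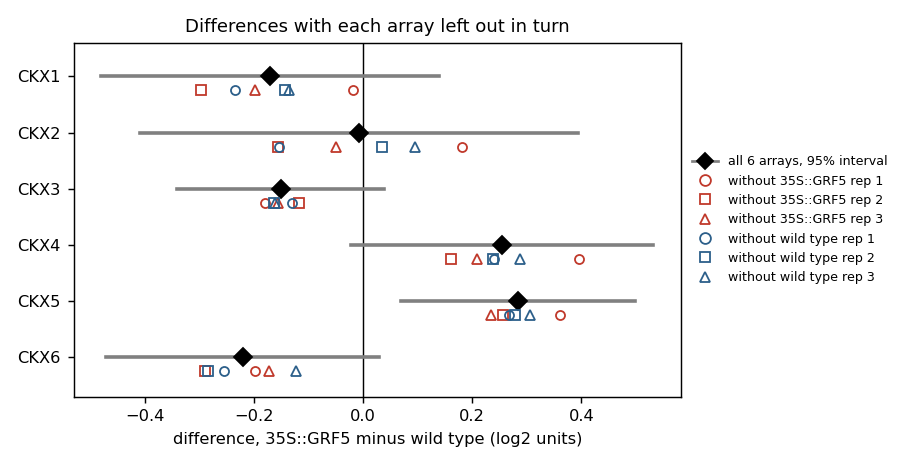
Difference between 35S::GRF5 and wild type for each measured CKX gene in log2 units: diamonds and bars give the limma estimate and 95% interval over all 6 arrays, and open symbols below them the estimate with 1 array left out (red, a 35S::GRF5 array; blue, a wild-type array). CKX4 and CKX5 stay right of 0 and CKX1, CKX3 and CKX6 left of it in every fit, while CKX2 falls on both sides.

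The intervals bound how far these transcripts could differ on the array scale. For 0 of the 6 genes did the 95% interval reach 1 log2 unit in either direction, and for 1 of 6, CKX5, it excluded 0. The upper bounds were a factor of 1.45 for CKX4, 1.41 for CKX5 and 1.31 for CKX2. In the other direction the bounds allowed CKX1 to be lower by a factor of up to 1.39, CKX6 by up to 1.38, CKX2 by up to 1.33 and CKX3 by up to 1.27. Detection calls were not used, and the means of CKX1 and CKX3 were below the 25th percentile of all loci, 4.38 log2 units. The other 4 passed that filter, and CKX4 alone passed a filter at the median of 6.404. Signal close to background draws a fold on the array towards 1, so the bounds of the low genes, CKX5 among them, hold for array signal.

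The 4 genes lowest of their group in 35S::GRF5 replicate 1 were CKX1, CKX2, CKX4 and CKX5. The share of all loci lowest in that array was not counted, so this is not read as a result about the family. The mean of the 6 CKX genes was 4.99, 5.32 and 5.22 in 35S::GRF5 replicates 1 to 3, against 5.09, 5.17 and 5.27 in wild-type replicates 1 to 3, so the line had both the lowest and the highest array. Weights estimated by limma from all loci ranked 35S::GRF5 replicate 1 as the least precise array, with a weight of 0.469, and wild-type replicate 1 as the most precise, with 2.04. With these weights CKX5 differed by 0.33 (adjusted p = 0.0993) and CKX4 by 0.32 (adjusted p = 0.16). Without 35S::GRF5 replicate 1 the differences were 0.36 for CKX5, 0.40 for CKX4, 0.18 for CKX2 and -0.02 for CKX1. As that array held their lowest value of the line, leaving it out raises each difference by construction.

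Differences between 2 members within an array do not change when a constant is added to all values of that array. A scaling that depends on signal level, such as equalising the arrays' distributions, can change them. The pairs given here were chosen after their values were seen, so they carry no test. CKX5 minus CKX6 was -1.26, -1.23 and -0.95 in 35S::GRF5, against -1.62, -1.53 and -1.80 in wild type, a change of 0.50 with no overlap between the groups. CKX3 minus CKX5 was -0.70, -1.03 and -0.99 in 35S::GRF5, against -0.39, -0.48 and -0.53 in wild type, a change of -0.43. Its lack of overlap was fixed in advance, since the groups already separated in opposite directions in these genes. The groups also separated in CKX4 minus CKX6 (a change of 0.47), CKX1 minus CKX5 (-0.45) and CKX1 minus CKX4 (-0.43). In the remaining pairs of measured members they overlapped. Each change restates the single-gene differences of its pair. CKX4 minus CKX5 was 2.22, 2.48 and 2.34 in 35S::GRF5, against 2.38, 2.35 and 2.40 in wild type; the groups overlapped, and the line's arrays spread over a wider range. The level of each such difference reflects the probes as well as the transcripts, so only its change between groups can be read.

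For the 2 genes whose groups did not overlap, the profiles nearest to theirs were looked up over the 6 arrays, by the root mean square distance between values centred on each gene's own mean. Among the other cytokinin genes, the nearest to CKX5 was AHK2, a cytokinin receptor, at a distance of 0.0689, where a flat profile lay at 0.163. AHK2 read 7.71, 7.78 and 7.76 in 35S::GRF5, against 7.38, 7.51 and 7.49 in wild type, a difference of 0.29 (adjusted p = 0.155 in limma). Over all loci, AT3G60180 and AT1G04390 were nearest to CKX5, at 0.0302 and 0.0303. For CKX3 the nearest cytokinin gene was ADK2, an adenosine kinase of cytokinin salvage, at 0.0528 where a flat profile lay at 0.0861, and the nearest loci were AT4G02690 and AT2G18680, at 0.0165 and 0.0186. For each gene 1.61% of all loci were as near as the nearest cytokinin gene, so these likenesses are common.

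Beside breakdown, cytokinin levels and responses depend on synthesis, activation, conjugation, transport and signalling, and 62 of 70 listed genes of these steps were measured. Of them 0 passed limma over all loci in either direction, 12 had an unadjusted p under 0.05, 8 higher and 4 lower, and the median difference was -0.00012. Over all loci 0.77% passed and 15.5% had such a p, 9.49% higher and 5.97% lower, so the 12 of 62, or 19.4%, lie near that share. Of 11 synthesis genes, 8 had positive differences (72.7%, beside 56.2% of all loci). The largest was that of IPT9, which modifies transfer RNA, at 0.36 (adjusted p = 0.21 in limma), or 0.25 without wild-type replicate 3. The 9 LOG genes, which release active cytokinin from its nucleotides, had a median of -0.05, with LOG2 at -0.24, or -0.15 without wild-type replicate 1, and LOG8 at 0.17. Among 7 genes of conjugation and salvage, UGT85A1 and UGT73C1, both zeatin O-glucosyltransferases, differed by 0.28 and -0.33 (adjusted p = 0.195 and 0.235). UGT73C1 differed by -0.19 without wild-type replicate 1. The purine permease gene PUP1 differed by -0.28 (adjusted p = 0.269 in limma), by -0.39 without wild-type replicate 1 and by -0.19 without wild-type replicate 2.

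**Figure D3:**
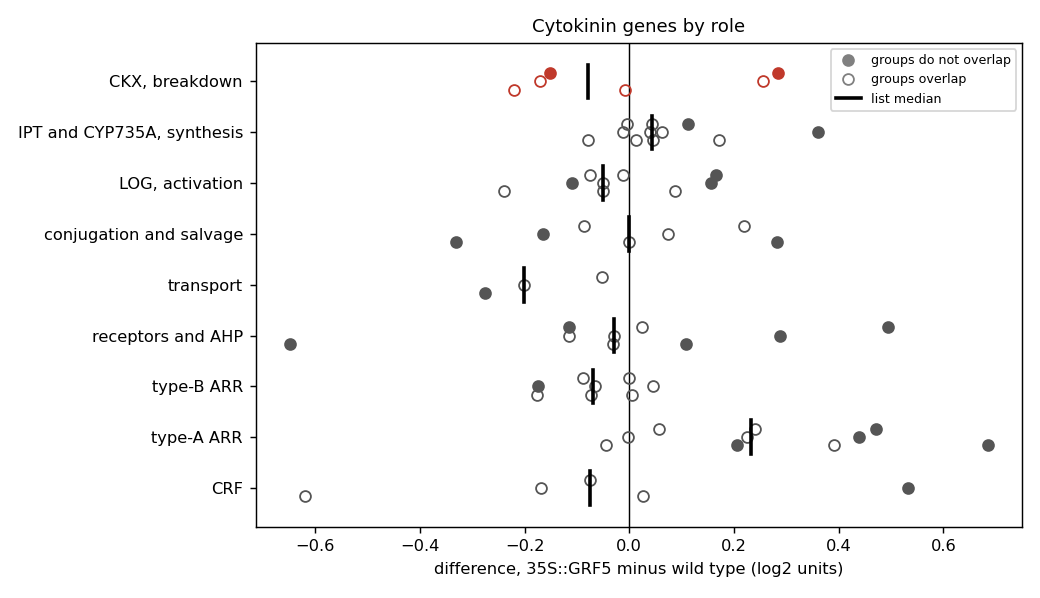
Differences between 35S::GRF5 and wild type in log2 units for the 6 CKX genes (red) and 62 other cytokinin genes (grey), by role; filled points are genes whose groups do not overlap, and black ticks are list medians. The type-A ARR median lies at 0.23 and the CKX median at -0.08.

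On the signalling side, the type-A response regulators, which cytokinin induces and which damp its signal, had a median difference of 0.23 over 10 genes. Without wild-type replicate 3, the array with high touch genes, that median was 0.16, and without any other single array it was 0.22 to 0.32. The smallest adjusted p values of the pathway were those of the type-A genes ARR8 (0.68, adjusted p = 0.0574) and ARR16 (0.47, adjusted p = 0.0666), and of the receptor gene AHK4 (0.49, adjusted p = 0.0732). CRF5 and CRF6, cytokinin response factors, differed by 0.53 and -0.62 (adjusted p = 0.0906 and 0.259), AHP4, a phosphotransfer protein, by -0.65 (0.215), and the type-B gene ARR12 by -0.17 (0.377). The size of several of these changed with single arrays. AHP4 differed by -0.37 without 35S::GRF5 replicate 1, and CRF6 by -0.40 without wild-type replicate 1 and by -0.93 without wild-type replicate 2. ARR8 differed by 0.53 without wild-type replicate 3 and by 0.80 without wild-type replicate 2. CRF5 differed by 0.39 without wild-type replicate 3 and by 0.61 without wild-type replicate 1. The differences of CKX5 and CKX4, at 0.28 and 0.26, lay above the type-A median and below ARR8 and ARR16, and whether the CKX and type-A genes differ was not tested.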

How the data were processed

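The deposited values are log2 expression values; the authors used RMA, as the submitters' processing notes state without a version. RMA corrects background, equalises the arrays' distributions and summarises probes. The table has 1 row per locus code; the sources used here do not say how probes were assigned to loci. Each group had 3 arrays, and the median 95% interval reached 0.23 log2 units to either side.

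All 20777 loci were fitted with limma 3.58.1 in R 4.3.3 (lmFit, eBayes, two-sided, no filter), and p-values were adjusted by Benjamini-Hochberg across the table, with 0.05 as the threshold. Differences are 35S::GRF5 minus wild type. Names were checked in a TAIR10.1 gene table, which held 20508 of the codes. The CKX genes, the cytokinin lists and the markers were chosen with earlier results of these data known. Named pathway genes come from the 3 smallest p values of each list, and AHK2 and ADK2 also from the nearest profiles. Alternatives were a replicate block, filters on low values, other scalings, trend and robust estimation, array weights and leaving out each array.

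In 10 simulated data sets over 20777 loci, with 200 changed loci, the fit called 7.6% of changes of 0.3 log2 units and 58% of 0.5. It called 99.6% of changes of 1, 100% of 2 and 0.052% of unchanged loci. The share called after adjustment depends on how many loci change, which is not known for the measured data.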

Additional observations from a re-analysis of the deposited data

How the results depend on the processing

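No CKX gene passed the threshold over all loci in any of the alternatives run, and CKX1, CKX3, CKX4, CKX5 and CKX6 kept the sign of their difference in each fit that held them; the filters left out CKX1 and CKX3 at the 25th percentile and every CKX gene but CKX4 at the median. The leave-one-out fits of the other cytokinin genes and their list medians were added after the data were seen. The sign of CKX2 turned when arrays were weighted (0.13) and in the fits without 35S::GRF5 replicate 1 (0.18), wild-type replicate 2 (0.04) or wild-type replicate 3 (0.10); its values without single arrays ran from -0.16 to 0.18, and the cause was not tested. CKX genes at an unadjusted p under 0.05 numbered 0 over loci above the median, where only CKX4 was left. There were 2 with arrays centred on their medians (CKX5 and CKX6) and 2 with array weights (CKX4 and CKX5). Without single arrays there were 0 to 2: 0 without 35S::GRF5 replicate 3, 2 without replicate 1 or 2 of that line, and 1 otherwise. Over all loci of the same fits the share at such a p was 19.4% above the median, 14.9% centred and 16.5% weighted. Without single arrays that share was 11.1% to 16.2%, so counts of 0 to 2 are not read as a result about the family. Called loci numbered 160 over all arrays, 59 higher and 101 lower, 252 with trend and robust estimation, 294 with array weights, and 17 to 186 without single arrays (186, 63 and 69 without 35S::GRF5 replicates 1 to 3, 17, 96 and 50 without wild-type replicates 1 to 3). With arrays centred on their medians the split was 45 higher and 126 lower. Of the other cytokinin genes, 1 was called with trend and robust estimation (ARR8), 3 with array weights (AHK4, ARR16 and ARR8), and 0 to 2 without single arrays, the 2 being AHK4 and ARR16 without 35S::GRF5 replicate 1. In the fit with a replicate block 114 loci and 0 CKX genes were called, and CKX5 had an adjusted p of 0.255; deviations of same-numbered arrays correlated at -0.05, 0.06 and -0.11, so the numbers were not taken to pair the samples. With 3 arrays per group, differences of the size seen in the CKX genes are mostly below what the fit can call.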
